A study of Mus musculus with 10 samples.

Results

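Solute carriers are the membrane proteins, named Slc, that move amino acids, metals, sugars, nucleosides, ions and metabolites into, out of and within cells. The genes described here were all those whose array feature carried 1 gene symbol of the form Slc, a family number, the letter a and a member number, with Slc2a1 left out. They were 133 genes on 140 features, out of 8905 genes and unnamed features measured. By substrate, 24 served amino acids, 17 metals, 9 sugars and lactate, 3 nucleosides and 19 were carriers of the family Slc25. A further 24 carried inorganic ions, 16 organic ions and 19 other substrates, and 2 (Slc9a3r1 and Slc4a1ap) share the naming pattern but are no transporters. Slc9a3r1 is a scaffold protein of the sodium-proton exchanger Slc9a3.

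The measurements were made on 10 mouse cDNA arrays of the 2-colour kind, where RNA of one condition competes with RNA of another for the same spots. All mice were C57/6N, aged 8 weeks. Tumour-associated macrophages (TAM) were taken 3 weeks after a tumour had been implanted, peritoneal exudate cells (PEC) served as peritoneal macrophages, and only cells that stuck to the dish were studied. Some cultures received lipopolysaccharide (LPS), the bacterial cell wall component that activates macrophages, at 100 ng/mL for 4 h, and the others were untreated. The labels give neither the tumour line nor the number of mice per sample. Of the arrays, 4 compared untreated TAM with untreated PEC, under the names TAM-b, TAM-3, TAM-8 and TAM-2R. Another 2, TAM1 and TAM7, compared TAM with LPS and PEC with LPS. The LPS response was measured in TAM on TAM-trial and TAM-16, against untreated TAM, and in PEC on PEC1 and PEC2, against untreated PEC.

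Macrophages rely on solute carriers in several well-known ways. Arginine enters through cationic amino acid transporters and feeds either nitric oxide synthesis or arginase. The heavy chain Slc3a2 brings light chains of family Slc7 to the plasma membrane, where they exchange amino acids, and Slc11a1 pumps divalent metals out of the phagosome, which withholds them from microbes. Carriers of family Slc25 sit mostly in the inner mitochondrial membrane and exchange nucleotides, phosphate and metabolites with the cytosol.

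Every value is the log2 ratio of the 2 channels, with the condition named first on top, so a ratio of 0 means equal signal and says nothing about the level. The dyes are not named in the labels, so each direction is likely and not certain. It rests on 12 LPS-induced genes, which were above 0 on both arrays of PEC with LPS against PEC (12 of 12 on each, with medians of 2.64 and 4.14). The channels were the other way round on TAM-2R and TAM1, whose ratios were therefore turned. TAM-2R then correlated with the other 3 arrays of its comparison at only r = 0.0363 to 0.101 across all genes and features, and TAM-trial with TAM-16 at r = 0.0964. TAM1 and TAM7 correlated at r = 0.293, and PEC1 and PEC2 at r = 0.269. On every array of the LPS responses, the sample with LPS was in channel 2. A dye effect of a gene and its LPS response therefore cannot be told apart on these arrays alone. The position of a feature on the print accounted for 4.39% (TAM1) to 49.1% (TAM-b) of the variance of an array. The arrays of a comparison are not said to come from separate animals or cultures, so p-values measure the spread between arrays, which may be technical. In RNA from bulk cells, fewer cells of a type and less RNA per cell cannot be told apart. Signal intensities were not used here, so the macrophage label could not be checked by marker levels. Of 8 macrophage markers measured, only the complement gene C1qa passed the test in untreated TAM against PEC (mean 2.12 ± 0.42, SD, n = 4, limma adjusted p = 0.0412).

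The lowest mean ratios of TAM over PEC, among members below 0 on every such array, belonged to 3 transporters of different substrates. Slc28a2, Slc1a1 and Slc12a4 were below 0 on all 6 arrays of TAM against PEC, both without and with LPS. On TAM-b, however, Slc28a2 was at -0.03, which is no difference. All 3 had positive ratios on both arrays of LPS in PEC. None of them passed the test across all genes in any comparison. They came closest to it of all members with LPS (adjusted p = 0.0697 for Slc28a2 and 0.073 for Slc12a4, limma), and Slc1a1 came closest without LPS (adjusted p = 0.0784). All 3 passed it with LPS when arrays were also centred and scaled (adjusted p = 0.00774 for Slc28a2, 0.0399 for Slc1a1 and 0.0106 for Slc12a4). They also passed it in a loop fit with a dye term (0.017, 0.0288 and 0.0129 in the same order). Calls rose in general there: 81 and 131 of the 8905 genes and features passed, against 6 in the reported fit. With the arrays of that comparison fitted alone, none of the 3 passed (limma adjusted p = 0.228, 0.328 and 0.262 in the same order). With arrays centred by the position of a feature, Slc28a2 passed (0.0364) and Slc1a1 (0.266) and Slc12a4 (0.079) did not. Of all genes and features, 16 passed at that setting. Had TAM-2R and TAM1 not been turned, the mean ratios with LPS would have been -0.62 for Slc28a2, 1.11 for Slc1a1 and 0.06 for Slc12a4, so the direction of Slc1a1 and Slc12a4 with LPS, and the size for Slc28a2, depend on the labelled channel order. In untreated cells the means would have been -0.80 for Slc28a2, -1.39 for Slc1a1 and -0.63 for Slc12a4, where they are -2.79, -2.10 and -1.39 as turned. Their promoters are shown because these members have the lowest means among those below 0 on all 6 arrays. Shown are the 250 bases before the transcription start, from RefSeq in build GRCm38.p6, 5′ to 3′ on the strand of the gene. They lie at chr2:122426185-122426434 (plus strand, Slc28a2), chr19:28834885-28835134 (plus strand, Slc1a1) and chr8:105966116-105966365 (minus strand, Slc12a4). Capitals mark the match to a motif.
Slc28a2: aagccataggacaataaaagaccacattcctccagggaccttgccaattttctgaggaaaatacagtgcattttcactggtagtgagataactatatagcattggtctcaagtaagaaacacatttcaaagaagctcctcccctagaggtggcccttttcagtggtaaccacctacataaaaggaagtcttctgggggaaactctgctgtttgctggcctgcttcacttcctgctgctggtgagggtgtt
Slc1a1: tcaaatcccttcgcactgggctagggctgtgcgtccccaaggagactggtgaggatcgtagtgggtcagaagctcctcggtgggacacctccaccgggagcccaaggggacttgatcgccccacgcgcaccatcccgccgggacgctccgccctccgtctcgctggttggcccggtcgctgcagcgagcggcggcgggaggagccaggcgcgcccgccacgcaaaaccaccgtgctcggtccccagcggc
Slc12a4: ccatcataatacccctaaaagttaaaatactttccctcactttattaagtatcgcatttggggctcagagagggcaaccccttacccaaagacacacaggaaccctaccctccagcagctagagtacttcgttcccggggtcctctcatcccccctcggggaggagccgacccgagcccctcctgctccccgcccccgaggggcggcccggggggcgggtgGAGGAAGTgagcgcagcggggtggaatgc
The G and C content of these stretches was 45.2% for Slc28a2, 70.4% for Slc1a1 and 60.8% for Slc12a4. Each was searched on both strands for GAGGAAGT (a core of PU.1 sites, PU.1 being the factor that defines the macrophage lineage), TGANTCA (AP-1), TGATGNAA (ATF4, a factor of the amino acid response) and the NF-kB motif. The 1 match in the 3 stretches was the PU.1 core of Slc12a4, at bases 222 to 229. Among 154 windows of 110 members, the PU.1 core was found in 1.95%, against 2.44% of the 32851 windows of this length in the part of the table searched. For AP-1 the shares were 5.19% of member windows and 6.75% of all windows. ATF4 had a match in 3.25% of member windows and 3.45% of all, and NF-kB in 6.49% of member windows and 3.9% of all. A match describes the letters only.

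Across the family as a whole, 0 members passed the adjusted test in any comparison, and most shares of members past a threshold lay near those of all genes. In untreated TAM against PEC, 0 of 133 members passed the limma test after Benjamini-Hochberg adjustment, where 0.46% of all genes and features did. At an unadjusted p under 0.05 there were 29 members (21.8%), 10 higher and 19 lower in TAM, where 14.3% of all genes and features passed. A simpler count took members with 1 sign on every array and a mean of at least 2-fold. It held 5 members on the higher side in TAM (3.76%, where 3.65% of all genes and features qualified) and 7 on the lower side (5.26%, where 4.29% of all did). With LPS, TAM against PEC again had 0 members past the adjusted test, where 0.0674% of all passed, and 13 members (9.77%) at the unadjusted threshold, where 8.99% of all passed. The 2-fold count was 8 higher (6.02%, against 6.65% of all) and 15 lower (11.3%, against 9.35% of all).

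The LPS responses were counted in the same way. In TAM, 0 members passed the adjusted test, where 0% of all passed, and 6 members (4.51%), all lower with LPS, passed unadjusted, where 5.58% of all did. By the 2-fold count 5 members were higher with LPS in TAM (3.76%, against 3.58% of all genes and features) and 10 were lower (7.52%, against 8.02% of all). In PEC, 0 members passed the adjusted test, where 0.0112% of all did, and 4 members (3.01%) passed unadjusted, where 8.14% of all did. Their 2-fold count was 10 higher with LPS (7.52%, against 11% of all) and 1 lower (0.752%, against 3.48% of all). The difference between the LPS response of TAM and that of PEC was tested as a contrast in the same limma fit. It had 0 members past the adjusted test (0% of all) and 0 past the unadjusted threshold, where 6.87% of all passed, with a lowest adjusted p of 0.732 for Slc25a5.

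**Figure D1:**
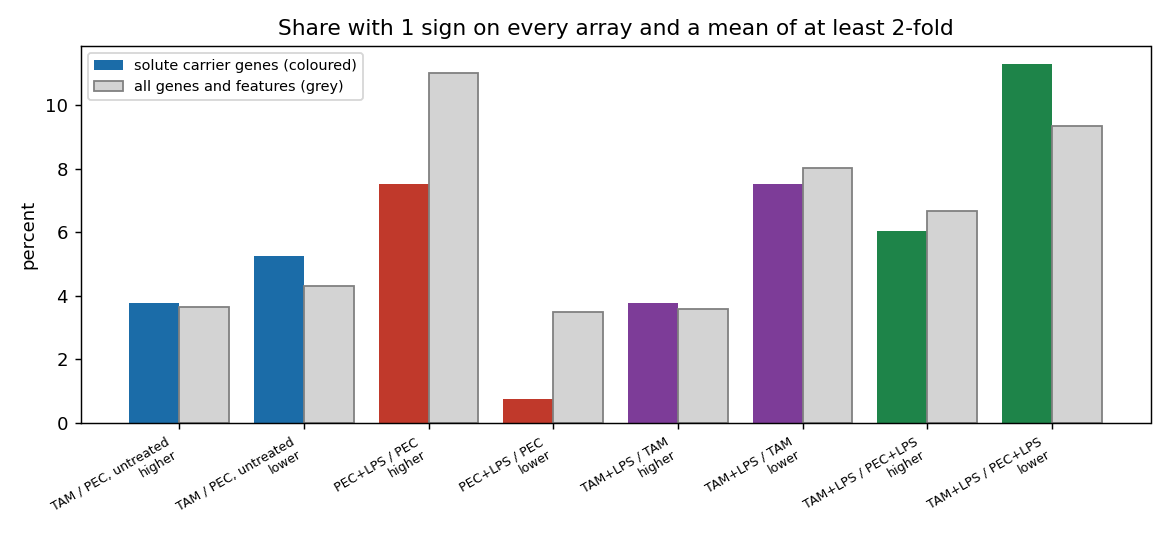
Bars give the percent of solute carrier genes (coloured, left of each pair) and of all 8905 genes and features (grey) that had 1 sign on every array of a comparison and a mean of at least 2-fold, by comparison and direction. The widest gap is that of genes higher with LPS in PEC, with 7.52% of members and 11% of all.

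Some members kept 1 sign across arrays. All 4 arrays of untreated TAM against PEC had the same sign for 15 members above 0 and 17 below (24.1% of members, against 19.6% of all genes and features). On the 6 arrays of TAM against PEC, with and without LPS, 7 members were below 0 throughout (5.26%, against 4.97% of all). They were Slc28a2, Slc1a1, Slc12a4, Slc6a8, Slc39a14, Slc3a2 and Slc34a2. Another 5 were above 0 throughout (3.76%, against 3.19% of all), namely Slc16a7, Slc20a2, Slc22a17, Slc22a30 and Slc25a10.

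**Figure D2:**
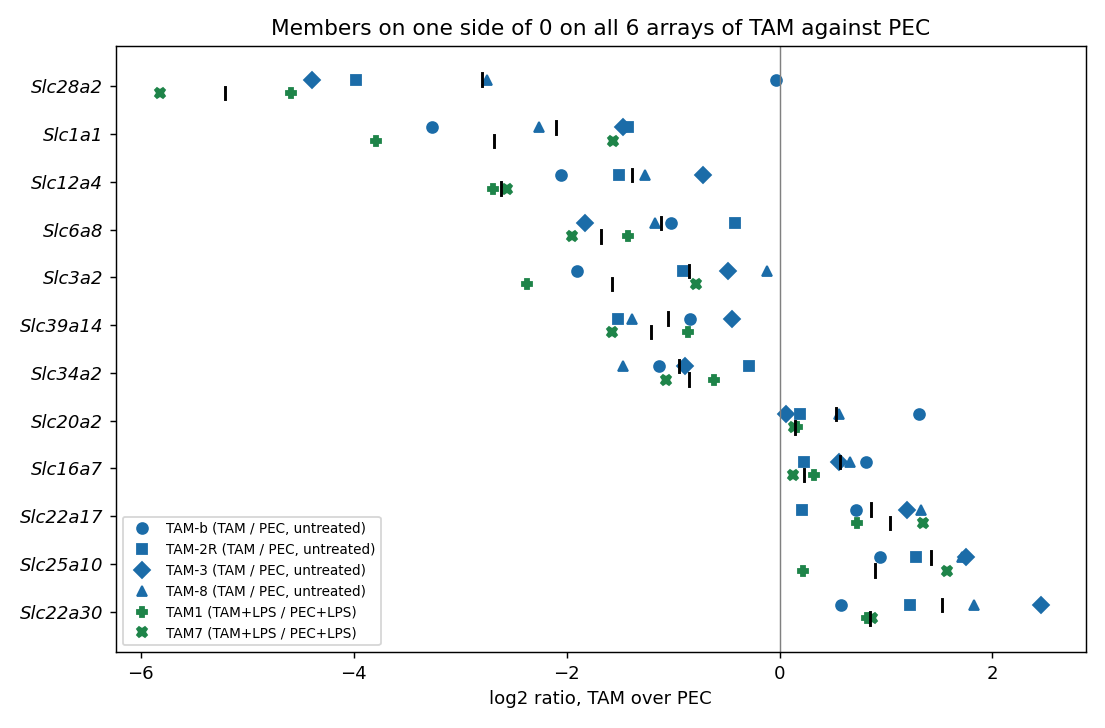
Points give the log2 ratio of TAM over PEC on each array for the 12 members on 1 side of 0 on all 6 arrays, blue for untreated cells and green for cells with LPS, and black ticks give the mean of each comparison. Slc28a2 reaches -5.82 with LPS and lies at -0.03 on TAM-b, while Slc20a2 and Slc16a7 stay near 0 with LPS.

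Nucleoside transporters were represented by 3 genes, and 1 of them had the largest mean ratio of the family. Slc28a2 takes up purine nucleosides and uridine together with sodium. In untreated TAM against PEC its log2 ratio was -0.03 on TAM-b, -3.98 on TAM-2R, -4.39 on TAM-3 and -2.75 on TAM-8, with a mean of -2.79 ± 1.97 (SD, n = 4). So 3 arrays were far below 0 and TAM-b was at 0. With LPS in both cell types it was -4.59 on TAM1 and -5.82 on TAM7, a mean of -5.21 ± 0.87 (SD, n = 2), or 36.9-fold lower in TAM with LPS than in PEC with LPS. The 2 arrays of LPS in TAM disagreed, at 1.16 on TAM-trial and -0.27 on TAM-16, whereas LPS in PEC gave 1.27 on PEC1 and 1.74 on PEC2 (mean 1.51 ± 0.33, SD, n = 2), both above 0. The limma adjusted p was 0.114 without LPS and 0.0697 with LPS. Leaving out TAM-b, the 1 array at 0, could only lower the mean in untreated cells. Slc28a2 then passed the limma test there (mean -3.71, adjusted p = 0.0218) and with LPS (adjusted p = 0.0165). Of all 8905 genes and features, 23 passed without LPS and 6 with LPS at that setting. The mean with LPS stayed at -5.21, as TAM-b is not an array of that comparison. Leaving out TAM-2R, TAM-3 or TAM-8 instead gave adjusted p of 0.183 to 0.238 without LPS and 0.0617 to 0.129 with LPS.

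The equilibrative nucleoside transporters did not share these ratios. Slc29a1, which lets nucleosides pass in either direction, averaged -0.10 in untreated TAM against PEC, with 2 of 4 arrays on each side of 0, and -0.71 with LPS (-1.47 on TAM1 and 0.05 on TAM7). Its relative Slc29a2 was at 1.20 and 0.72 in TAM against PEC with LPS. Slc29a2 had negative ratios on both arrays of LPS in PEC (-0.54 and -0.85) and both of LPS in TAM (-0.26 and -0.66). Of 10 genes of nucleoside use listed, 7 were measured and 0 passed the adjusted test in any comparison. Adenosine deaminase (Ada) averaged 0.41 ± 0.69 and purine nucleoside phosphorylase (Pnp) 0.34 ± 0.75 in untreated TAM against PEC (SD, n = 4 each).

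Among amino acid transporters, some had low ratios in TAM against PEC, some low ratios for LPS in TAM and some high ratios for LPS in PEC. These sets overlap. By the 2-fold count, 1 of 24 was lower in untreated TAM against PEC, where 4.29% of all genes and features were. With LPS 3 were lower in TAM against PEC (9.35% of all), and 3 were higher for LPS in PEC (11% of all). These counts lie near the shares of all genes and features, so they are not a result about the class. Slc1a1 is a high-affinity carrier of glutamate, aspartate and cysteine. Its ratio of TAM over PEC was -3.26 on TAM-b, -1.42 on TAM-2R, -1.47 on TAM-3 and -2.26 on TAM-8 (mean -2.10 ± 0.86, SD, n = 4), and with LPS -3.79 on TAM1 and -1.56 on TAM7 (mean -2.68 ± 1.57, SD, n = 2). All 6 arrays were at or below -1.42, on both channel orders. LPS gave -0.15 and -0.42 in TAM, close to 0 on both arrays, and 1.16 and 0.84 in PEC, above 0 on both. The adjusted p of Slc1a1 was 0.0784 without LPS and 0.182 with LPS (limma).

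Slc3a2, the heavy chain shared by several amino acid exchangers and known on leukocytes as CD98, had opposite signs for LPS in TAM, at -0.40 on TAM-trial and 0.49 on TAM-16. For LPS in PEC it had the highest mean among members with both arrays above 0. It was at 1.92 on PEC1 and 1.39 on PEC2 (mean 1.66 ± 0.38, SD, n = 2), or 3.15-fold higher with LPS (limma adjusted p = 0.452). The difference between the responses, TAM minus PEC, was -1.61 with a standard error of 0.78 and an adjusted p of 0.75, so the responses were not shown to differ. In TAM over PEC, Slc3a2 was below 0 on every array, at -1.90, -0.91, -0.48 and -0.12 without LPS and at -2.37 and -0.78 with LPS.

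The light chains that pair with Slc3a2 had no common pattern. Slc7a5, the exchanger of large neutral amino acids, was at 4.26 on TAM-trial and -0.11 on TAM-16 for LPS in TAM, so its mean of 2.08 there came from 1 array, and at 1.38 and 0.87 for LPS in PEC. Slc7a7, which exports cationic amino acids such as arginine, was above 0 on all 4 arrays of untreated TAM against PEC (1.08, 0.86, 1.4 and 1.3, mean 1.16 ± 0.24, SD, n = 4, limma adjusted p = 0.21). With LPS its ratios in TAM against PEC had opposite signs, -0.67 on TAM1 and 0.97 on TAM7. Slc7a6, its closest relative in function, averaged 0.38 in untreated TAM against PEC, with 3 of 4 arrays above 0.

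Slc7a1, the cationic amino acid transporter that imports arginine, was at 0.26 and 0.08 for LPS in TAM, and at 0.81 and 1.2 for LPS in PEC. In TAM against PEC it averaged -1.36 ± 1.05 with LPS (-2.10 on TAM1 and -0.62 on TAM7; SD, n = 2) and 0.02 ± 0.53 without LPS (SD, n = 4). The difference between these contrasts, with LPS minus without, was -1.37 with a standard error of 0.58 (adjusted p = 0.698). Slc1a5, the neutral exchanger that takes up glutamine, was at -0.25 and 0.43 for LPS in TAM, and at 0.74 and 0.77 in PEC, above 0 on both arrays.

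In TAM with LPS against untreated TAM, 7 of 24 amino acid transporters (29.2%) had a mean above 0, where 43.2% of all genes and features did, and their median was -0.44. All genes and features together had a median of -0.13 there, a shift of the arrays below 0 against which these ratios are read. The class median was -0.41 on one array and -0.32 on the other. Within it, 5 members had both arrays below 0 and a mean of at least 2-fold, a count that 8.02% of all genes and features met. Slc6a19, a carrier of neutral amino acids known from kidney and gut, was at -2.06 and -1.50. Slc6a14, which takes up neutral and cationic amino acids, was at -2.70 and -0.41, and Slc6a12, the carrier of betaine and GABA, at -1.83 and -0.74, in each case lower on TAM-trial. The glycine transporter Slc6a9 (-1.36 and -1.08) and the neutral carrier Slc1a4 (-1.10 and -1.12) had nearly equal ratios on both arrays. In PEC with LPS the class median was 0.10, with 14 of 24 above 0. The 5 named members had means of -0.59 (Slc6a19), -0.54 (Slc6a14), -0.78 (Slc6a12), -0.51 (Slc6a9) and 0.12 (Slc1a4) there. No amino acid transporter passed the unadjusted threshold in the difference between the LPS responses.

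**Figure D3:**
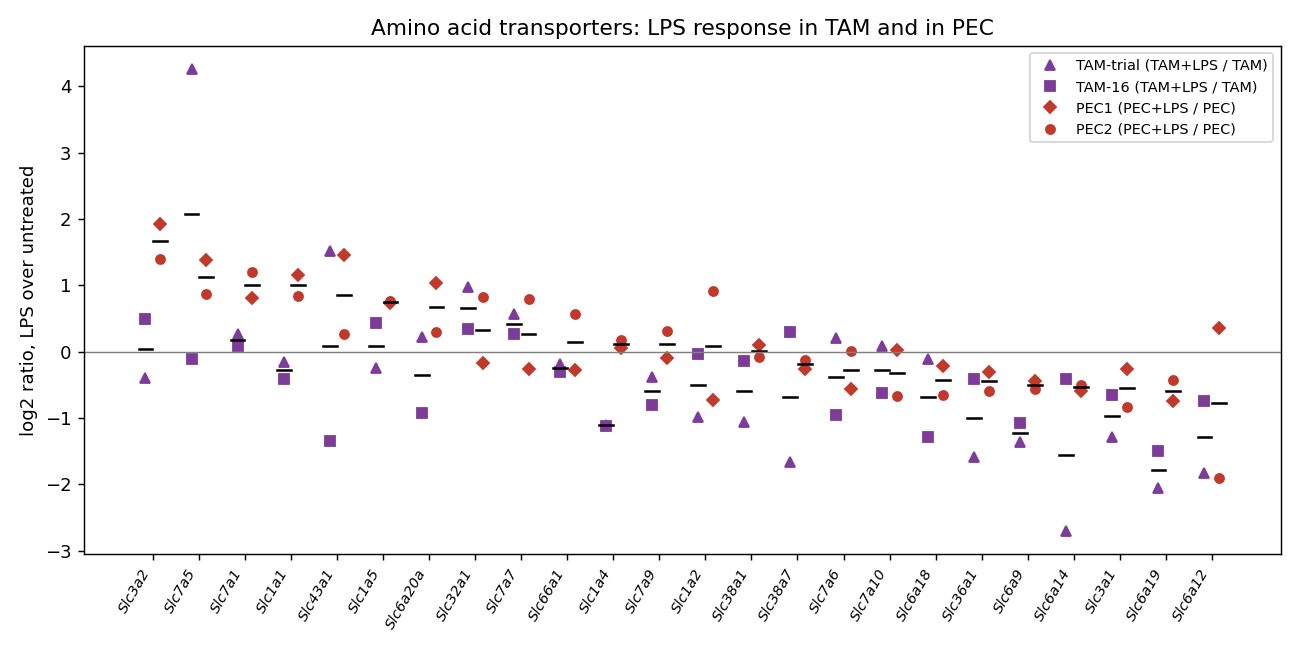
Each amino acid transporter has its log2 ratio of LPS over untreated on the 2 TAM arrays (purple, left) and the 2 PEC arrays (red, right), with black lines for the means, ordered by the mean in PEC. Slc3a2, Slc7a1 and Slc1a1 lie within 0.50 of 0 on both TAM arrays and above 0.80 on both PEC arrays, and the mean of Slc7a5 in TAM rests on TAM-trial at 4.26.

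Genes of amino acid and nitrogen use outside the family were listed for comparison, 12 in all with 8 measured, and 0 passed the adjusted test. Their median was -0.78 in untreated TAM against PEC, -0.60 for LPS in TAM and 0.87 for LPS in PEC. The medians of the 8 macrophage markers had the same signs in these comparisons, at -0.53, -0.86 and 1.14. Atf4, the transcription factor of the amino acid response, averaged -1.60 ± 0.48 in untreated TAM against PEC (SD, n = 4), and -2.34 ± 0.24 in TAM against PEC with LPS (SD, n = 2). Atf4 averaged -1.39 ± 1.65 for LPS in TAM and 1.29 ± 0.91 for LPS in PEC (SD, n = 2 each). Asparagine synthetase (Asns), one of its known targets, averaged -0.46 in untreated TAM against PEC, -1.12 with LPS, and 1.34 for LPS in PEC. The inducible nitric oxide synthase Nos2 averaged 3.69 ± 2.52 for LPS in TAM and 3.57 ± 0.28 for LPS in PEC (SD, n = 2 each).

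The means of the 17 metal transporters were more spread out than those of any other class of more than 3 members, with an SD across members of 1.06 in untreated TAM against PEC and 1.29 with LPS. Slc11a1, the phagosomal metal pump of macrophages, was at 6.33 on TAM-b, 0.07 on TAM-2R, 3.25 on TAM-3 and -1.41 on TAM-8 in untreated TAM against PEC. With LPS it was at -6.01 and -1.80. The LPS response was -0.28 and -1 in TAM, and -5.70 on PEC1 and 1.85 on PEC2. The direct ratio of TAM with LPS over PEC with LPS averaged -3.90, where the other 3 comparisons chained together gave 3.35, so no direction can be read for this gene. Slc11a2, the divalent metal importer of endosomes, averaged -0.31 in untreated TAM against PEC and -0.60 with LPS.

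Slc39a14, an importer of zinc and iron, was below 0 on all 6 arrays of TAM against PEC (-0.84, -1.52, -0.45 and -1.39 without LPS and -0.86 and -1.57 with LPS). Its 2 features gave different pictures. One had means of -1.88 without LPS and -2.54 with LPS in TAM against PEC and of 1.21 for LPS in PEC. The other had -0.22 and 0.12 in TAM against PEC and -0.72 for LPS in PEC, so the low ratios came from 1 feature. Adjusted p-values of the gene mean were 0.216 without LPS and 0.447 with LPS (limma).

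Copper and magnesium carriers were also measured. Slc31a2, a copper transporter of endosomes, was at 0.08, -1.61, -0.76 and -0.85 in untreated TAM against PEC and at -1.73 and -0.76 with LPS, below 0 on 5 of 6 arrays. The plasma membrane copper importer Slc31a1 was at -0.68 and -0.74 with LPS and had 2 of 4 arrays on each side of 0 without it. Slc41a1, a magnesium transporter, was at 1.26 and 0.77 for LPS in TAM and at 0.98 and 1.70 for LPS in PEC, above 0 on all 4 arrays. Slc30a10, a manganese exporter of the zinc transporter family Slc30, had 0.63 and 0.95 for LPS in TAM and 0.70 and 1.6 for LPS in PEC, again above 0 on each. The class median was -0.23 in untreated TAM against PEC, with 7 of 17 members above 0, and 0.24 for LPS in PEC, with 12 above 0.

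Of 14 metal-handling genes listed, 12 were measured and 0 passed the adjusted test in any comparison. The metallothioneins, which bind zinc and copper, averaged 0 ± 1.25 (Mt1) and 0.64 ± 1.75 (Mt2) for LPS in TAM, and 3.44 ± 0.22 (Mt1) and 3.58 ± 0.10 (Mt2) for LPS in PEC (SD, n = 2 each). Ferritin heavy chain (Fth1) averaged -0.20 for LPS in TAM and 1.48 for LPS in PEC. Slc22a17, known as a receptor of the iron-carrier protein lipocalin-2, was above 0 on all 6 arrays of TAM against PEC, at 0.72, 0.21, 1.20 and 1.33 without LPS and 0.73 and 1.35 with LPS.

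Sugar and lactate carriers had medians between -0.12 and 0.05 in the 4 comparisons, but single arrays differed. For LPS in TAM 1 of 9 members had a mean above 0 (11.1%, against 43.2% of all genes and features), and the class median was -0.77 on one array and 0.14 on the other. For LPS in PEC it was -0.44 on one and 0.05 on the other. Slc50a1, a sugar transporter of intracellular membranes, was at 1.51, 1.43, 1.07 and 1.08 in untreated TAM against PEC, above 1 on all 4 arrays (mean 1.27 ± 0.23, SD, n = 4, limma adjusted p = 0.221), and at -0.29 and 0.40 with LPS. Slc16a1, which carries lactate and pyruvate with a proton, was at -0.45 on PEC1 and 4.17 on PEC2, so its mean of 1.86 for LPS in PEC rests on 1 array. In TAM against PEC with LPS it was at -2.23 and -0.91. Slc16a7, the second lactate carrier measured, was above 0 on all 6 arrays of TAM against PEC, at 0.81, 0.23, 0.56 and 0.66 without LPS, and close to 0 with LPS at 0.32 and 0.13. Slc37a4, the glucose 6-phosphate carrier of the endoplasmic reticulum, was at -1.32 and -0.77 for LPS in TAM and -0.21 and -0.72 for LPS in PEC. The sugar transporters Slc2a2, Slc2a4, Slc2a5 and Slc2a8 had both signs among the 4 arrays of untreated TAM against PEC. Slc2a10 was at -0.67, -1.19, -0.70 and -0.76 there. Of 15 genes of glycolysis and lactate listed, 8 were measured, with medians of -0.60 for LPS in TAM and 0.87 for LPS in PEC and 0 past the adjusted test. Lactate dehydrogenase A (Ldha) averaged -0.68 ± 0.81 for LPS in TAM and 1.53 ± 0.32 for LPS in PEC (SD, n = 2 each).

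Among the 19 carriers of family Slc25, 12 had a mean above 0 in untreated TAM against PEC (63.2%, median 0.22), where 48.7% of all genes and features did. For LPS in TAM 7 did so (36.8%, median -0.22, against 43.2% of all), and for LPS in PEC 12 (63.2%, median 0.20, against 48.1% of all). With TAM-2R and TAM1 not turned, the median in untreated TAM against PEC was -0.05. Slc25a10, the dicarboxylate carrier that exchanges malate and succinate for phosphate, was at 0.94, 1.28, 1.75 and 1.71 in untreated TAM against PEC (mean 1.42 ± 0.38, SD, n = 4, limma adjusted p = 0.114). It stayed above 0 with LPS, at 0.22 and 1.57, and in TAM with LPS against untreated TAM, at 1.14 and 0.57. Slc25a22, a glutamate carrier, was at -1.25 and -1.14 in TAM against PEC with LPS, and at 0.94, 1.10, 1.02 and 0.23 in untreated TAM against PEC. Chained together, the other 3 comparisons gave 0.40 for Slc25a22 in TAM against PEC with LPS, opposite in sign to the direct mean of -1.20. The test of the difference between its direct ratios, with LPS minus without, gave -2.02 with a standard error of 0.50 (unadjusted p = 0.00234, adjusted p = 0.698, limma). In that contrast 0 members passed the adjusted test (0% of all) and 11 (8.27%) the unadjusted one, where 7% of all genes and features did.

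The ATP and ADP exchanger Slc25a5 was at -1.62 and 0.35 for LPS in TAM and at 1.46 and 1.06 for LPS in PEC. In TAM against PEC with LPS it was at -1.07 and -1.36, both below 0, and its mean without LPS was 0.04. Its relative Slc25a4 was at -1.91 and 0.25 for LPS in TAM, and at 0.55 and 0.64 in PEC. Slc25a17, a Slc25 member that sits in peroxisomes, was at 1.25 and 1.04 for LPS in PEC. Slc25a1, the citrate carrier, was above 0 on both arrays of the LPS response in either cell type, at 0.93 and 0.29 in TAM and at 0.58 and 0.12 in PEC. The acylcarnitine carrier Slc25a20 was at 0.35, 0.90, 0.26 and 0.62 in untreated TAM against PEC, above 0 on all 4 arrays, and at -0.08 and -0.88 with LPS.

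Slc25a44 and Slc25a39 also had 1 sign across the 4 arrays of untreated TAM against PEC. Slc25a44, a carrier of branched-chain amino acids, was at 0.75, 0.56, 0.72 and 0.53, the tightest set of the class, and near 0 with LPS at -0.02 and -0.11. Slc25a39, which brings glutathione into mitochondria, was at 0.29, 1.05, 1.12 and 1.11. Slc25a16 was the lowest of the class in untreated TAM with 1 sign on every array (-0.73, -1.88, -1.76 and -0.26). Slc25a46, an outer membrane protein of mitochondrial shape, and Slc25a42, a coenzyme A carrier, ranked high in TAM against PEC with LPS through TAM7 alone, at 5 and 3 on that array, against 0.33 and 0.06 on TAM1.

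**Figure D4:**
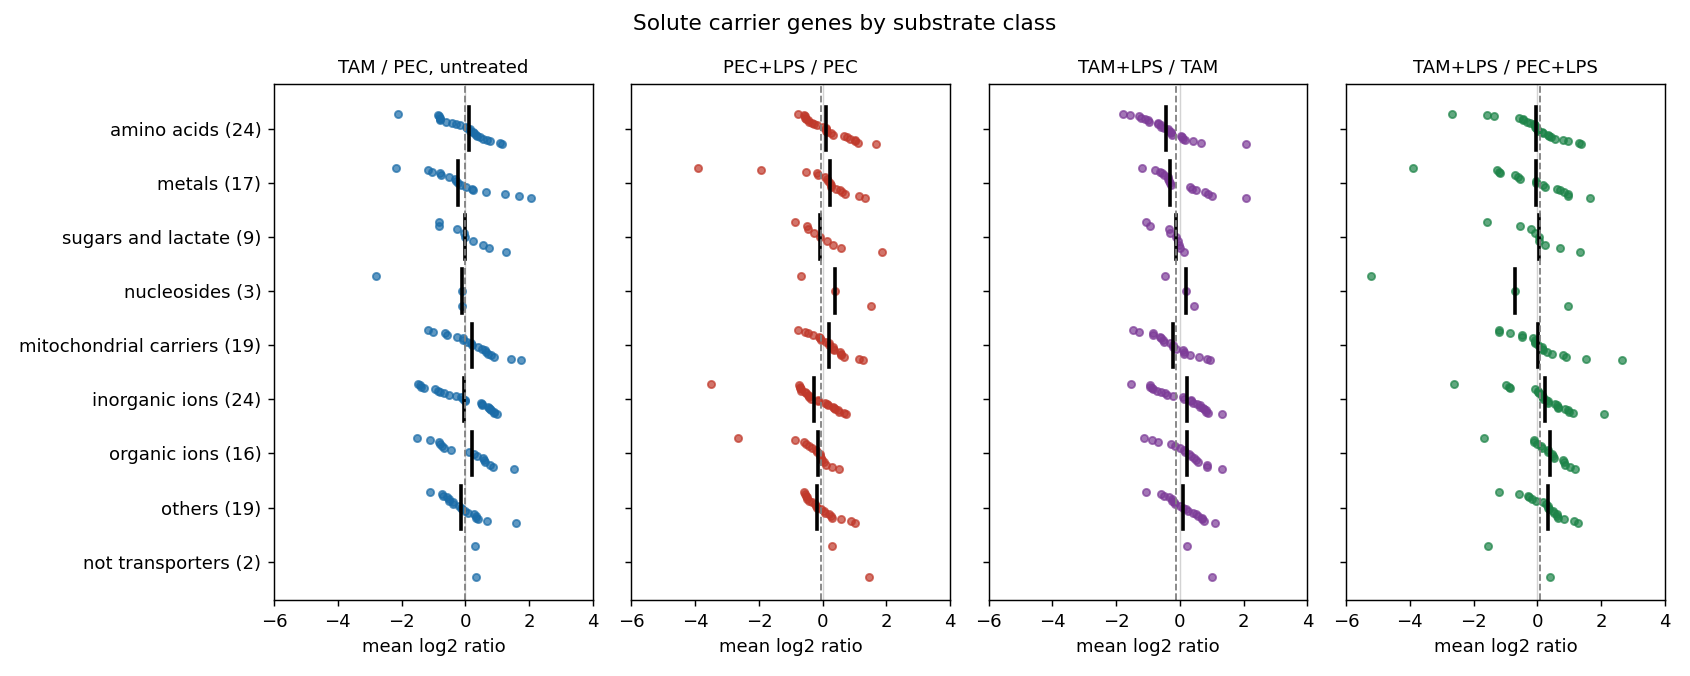
Each point is the mean log2 ratio of 1 member, by substrate class (number of members in brackets) and comparison, with black bars for class medians and a dashed line for the median of all genes and features. The median of the amino acid class lies at -0.44 for LPS in TAM and that of the 3 nucleoside carriers at -0.71 in TAM against PEC with LPS, where Slc28a2 is at -5.21.

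Among inorganic ion carriers, Slc12a4 had the lowest recurring ratios in TAM against PEC. This potassium-chloride cotransporter helps cells to lose volume. It was at -2.05 on TAM-b, -1.51 on TAM-2R, -0.72 on TAM-3 and -1.26 on TAM-8 in untreated TAM against PEC (mean -1.39 ± 0.55, SD, n = 4, limma adjusted p = 0.126). With LPS it was at -2.69 and -2.56 (mean -2.62 ± 0.09, SD, n = 2), or 6.16-fold lower in TAM with LPS, on opposite channel orders and 2 print versions. Its other 3 comparisons chained together gave -2.57 for the same contrast. Chaining gave -3.85 for Slc28a2 (direct mean -5.21) and -3.38 for Slc1a1 (direct mean -2.68). For Slc12a4, LPS gave -1.12 and 0.20 in TAM, and 0.60 and 0.87 in PEC. The phosphate carrier Slc34a2 was also below 0 on all 6 arrays of TAM against PEC (means -0.94 without LPS and -0.85 with LPS), and the phosphate importer Slc20a2 above 0 on all 6 (0.53 and 0.15).

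Slc6a8, the creatine transporter, was the lowest of the organic ion carriers with LPS. It was at -1.02, -0.42, -1.83 and -1.17 in untreated TAM against PEC (mean -1.11 ± 0.58, SD, n = 4, limma adjusted p = 0.214) and at -1.42 and -1.95 with LPS. LPS itself gave opposite signs on the 2 arrays of either cell type, 0.22 and -0.51 in TAM and -0.38 and 0.58 in PEC. Slc22a30, an organic anion carrier of the Slc22 family, was at 0.58, 1.23, 2.46 and 1.83 in untreated TAM against PEC (mean 1.53 ± 0.81, SD, n = 4, limma adjusted p = 0.0988), and at 0.82 and 0.87 with LPS. Slc23a3, a relative of the vitamin C transporters, had the highest mean there among members with 1 sign on all 4 arrays, 1.59 ± 0.83 (SD, n = 4, limma adjusted p = 0.168), with opposite signs on the 2 arrays with LPS. Slc17a1, a carrier of phosphate and organic anions known from kidney, was below 0 on all 8 arrays that did not compare the LPS-treated cells with each other. Its ratios were -0.73, -0.80, -1.02 and -0.76 in untreated TAM against PEC, -1.26 and -0.99 for LPS in TAM, and -0.81 and -0.92 for LPS in PEC. All these arrays but TAM-2R had the condition named first in channel 2. In TAM against PEC with LPS, Slc17a1 was at 0.56 and -0.27, a mean of 0.14. The other comparisons chained together gave -1.09 for that contrast, opposite in sign.

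Several of the largest means rested on 1 array. Among all members there were 21 single values of at least 4 in size, spread over 15 genes. Slc12a1, the kidney chloride cotransporter, had a mean of -3.49 for LPS in PEC from -0.03 on PEC1 and -6.95 on PEC2. The carnitine importer Slc22a5 was at 1.20 on PEC1 and -6.54 on PEC2, so its mean of -2.67 for LPS in PEC came from PEC2. Slc39a13, a zinc transporter, was at -8.06 on PEC1 and 0.27 on PEC2. The organic anion carrier Slc22a8 had a mean of -1.52 in untreated TAM against PEC, with -4.62 on TAM-3 and between -1.25 and -0.08 on the other 3.

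For LPS in TAM, the highest members with both arrays above 0 were the sulfate carrier Slc13a4 (mean 1.32), Slc22a5 (1.31), the fatty acid transporter Slc27a4 (1.10), and Slc9a3r1 and Slc41a1 (1.02 each). In the loop fit with a dye term Slc22a5 was at -0.40, so its direction depends on the fit. Slc9a3r1 was also above 0 on both arrays for LPS in PEC, at 1 and 1.95, and was below 0 in TAM against PEC with LPS, at -2 and -1.05. The lowest for LPS in TAM with both arrays below 0 included Slc9a3 (-1.54), the sodium-proton exchanger that Slc9a3r1 binds, and the mitochondrial Slc25a40 (-1.28, but 0.05 in the loop fit). In TAM against PEC with LPS, Slc9a3 had a direct mean of 0.03, where the other comparisons chained together gave -1.97. With both arrays below 0, the lowest for LPS in PEC after Slc12a1 were Slc17a1 and the glucose transporter Slc2a2 (-0.86 each), Slc25a42 (-0.78) and the bicarbonate carrier Slc4a4 (-0.74). In TAM against PEC with LPS the highest with both arrays above 0, beside Slc25a46 and Slc25a42, were the sulfate carrier Slc13a1 (2.09), Slc1a4 (1.31) and the acetyl-CoA carrier Slc33a1 (1.29). The other 3 comparisons chained together gave -1.58 for Slc13a1, -2.04 for Slc1a4 and -0.30 for Slc25a46, opposite in sign to the direct means. They gave 1.94 for Slc25a42 and 1.34 for Slc33a1, of the same sign. With TAM-2R and TAM1 not turned, Slc1a4 was at -1.24. The 2 features of Slc33a1 differed there, at 2.64 and -0.07.

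The panel of 32 members chosen for known roles in macrophages had 19 on the arrays, and 0 of them passed the adjusted test in any comparison. Genes with 2 features numbered 7, and both features had the same sign of mean for 4 of them in untreated TAM against PEC, 4 for LPS in PEC, 5 for LPS in TAM and 3 in TAM against PEC with LPS.

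Markers of other cell types were listed too, and some had ratios away from 0 in untreated TAM against PEC. Neutrophil markers had a median of 0.98, with 5 of 6 measured genes above 0, and fibroblast markers 1.26, with 6 of 7 above 0 and medians of single arrays between -0.48 and 2.80. Macrophage markers had a median of -0.53, with 3 of 8 above 0, and Cd68 averaged -1.74 ± 1.41 without LPS and -3.50 ± 0.25 with LPS. Medians were 0.07 for 3 endothelial markers, 0.05 for 7 markers of T and NK cells and 0.31 for 3 of B cells. With LPS in both cell types the median was -1.03 for macrophage, 0.76 for neutrophil and 0.83 for fibroblast markers. The macrophage median was -0.86 for LPS in TAM, with 2 of 8 above 0, and 1.14 for LPS in PEC, with 7 of 8 above 0. Apart from C1qa, 0 of these genes passed the adjusted limma test in any comparison. The part of these cell types in the ratios of the solute carriers was not tested.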

How the data were processed

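Solute carrier genes were read from 10 arrays of mouse TAM and PEC. For each feature and array there was 1 deposited log ratio, taken as log2, because its largest size, 11.687, then stands for a 3297-fold ratio. How images were read and values background-corrected and normalized, the base of the logarithm and the dyes are not stated in the labels, and are otherwise not given in the sources used. Array medians lay between -0.199 and 0.022. Per the labels there were 3 print versions, namely v1p1 for PEC1, v9p2 for TAM7, TAM-8 and TAM-trial, and v3p6 for the rest. Of 9596 features, 7486 had 1 gene symbol in the platform table supplied with the values and 2110 had several or none. Features of 1 gene were averaged (631 genes), and 9 features with several symbols including a solute carrier were left out of the members. Channel 2 was taken as the numerator, and TAM-2R and TAM1 were turned, with their other coding as an alternative.

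Tests came from 1 limma fit (version 3.58.1, R 4.3.3; lmFit, then eBayes) over the 10 arrays, which gave a mean for each of the 4 direct comparisons with 6 residual and 3.84 prior degrees of freedom. Two-sided p-values underwent Benjamini-Hochberg adjustment across the 8905 genes and features, and 0.05 was the threshold. SDs are over arrays and standard errors come from the fit. The number of arrays limits the precision, and dim spots could not be filtered. The fit was tested on simulated data. Members, substrate classes, marker and partner lists were chosen with earlier results of these data known. Named were members past the test, the 5 highest and 5 lowest with 1 sign on every array of a comparison, and a panel of 32 members; further members were named after their values were seen, as were the alternatives on feature position and the contrast of TAM against PEC with minus without LPS. Alternatives were the other coding, a loop fit with a dye term, centring, scaling, centring by a feature's position in blocks of 96, the arrays of a comparison or of print v3p6 alone, single features, and each array left out. Promoter windows came from the RefSeq table of build GRCm38.p6. Windows on chr18 were left out, and the rest held 110 of the 133 members.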

Additional observations from a re-analysis of the deposited data

How the results depend on the processing

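Ratios from 2 to 4 arrays a comparison, without signal intensities, limit every value here: dim spots cannot be told from bright ones, and TAM-2R correlated with the others of its comparison at no more than r = 0.101. A lone array left in a comparison was assumed to vary like the others. No paired analysis was possible because no pair of comparisons shares more than 1 replicate number. Among the 40 highest and lowest named values, 2 turned sign in the loop fit (Slc22a5 and Slc25a40 for LPS in TAM) and 4 with TAM-2R and TAM1 not turned (Slc1a4, Slc11a1, Slc1a1 and Slc12a4 in TAM against PEC with LPS). Of these 40, 0 turned sign under the other settings. They were picked for 1 sign on every array, so settings that only leave out arrays could not turn them. Of all 108 named values, 19 turned sign in the loop fit, 19 with TAM-2R and TAM1 not turned, 17 centred by place, 14 on print v3p6 alone, 1 each with arrays centred or also scaled, and 2 to 6 with 1 array left out. The cause was not tested.

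For members past the adjusted limma test, 0 in the reported fit, untreated TAM against PEC gave 1 with arrays centred by place (Slc28a2). Of all 8905 genes and features, 33 passed there. With LPS, 131 of all passed in the loop fit with a dye term, 81 with arrays centred and scaled and 16 centred by place, against 6 as reported. The members among them were Slc28a2, Slc1a1 and Slc12a4 in the loop fit and when centred and scaled. Centred by place, the 1 member past the test with LPS was Slc28a2. Leaving out TAM-b gave 1 member, Slc28a2, in untreated TAM against PEC and with LPS, where 23 and 6 of all genes and features passed. Leaving out any other array gave 0 members, among fits that kept at least 2 arrays of the comparison read. Calls of a comparison left with a lone array are not given.

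At 1.5-fold in place of 2-fold, the counts with 1 sign on every array became 11 higher and 16 lower in untreated TAM against PEC, 21 and 28 for LPS in TAM, 22 and 11 for LPS in PEC, and 25 higher with LPS in TAM against PEC. With TAM-2R and TAM1 not turned they were 3 and 3 in untreated TAM against PEC, and 1 lower with LPS. Centred by place they were 3 higher in untreated TAM against PEC, 3 and 3 for LPS in TAM, 3 lower for LPS in PEC and 4 higher in TAM against PEC with LPS. With 1 array left out, untreated TAM against PEC had 10 to 12 higher and 6 to 16 lower, LPS in TAM 1 to 26 higher and 15 to 23 lower, LPS in PEC 7 lower without either array, and TAM against PEC with LPS 11 to 28 higher. Fewer arrays then had to share a sign, which alone can raise a count. Counts over all genes and features at these settings are not given here, so no count in this paragraph is a result about the family. The counts below the reported ones were 1 higher for LPS in TAM without TAM-trial, 6 lower in untreated TAM against PEC without TAM-3, and 11 lower in TAM against PEC with LPS without TAM1.

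Class medians with TAM-2R and TAM1 not turned were 0.02 for metals and -0.05 for mitochondrial carriers in untreated TAM against PEC, and 0.03 for amino acids, 0.32 for metals and -0.09 for sugars and lactate with LPS. With arrays centred they were -0.34 (amino acids) and -0.11 (mitochondrial carriers) for LPS in TAM, 0.22 (mitochondrial carriers) for LPS in PEC, and -0.07 (amino acids) in TAM against PEC with LPS. With 1 array left out, amino acid medians ran from -0.14 to 0.15 in untreated TAM against PEC, -0.41 to -0.32 for LPS in TAM and -0.02 to 0.02 in TAM against PEC with LPS. Metals ran from -0.34 to 0.01 for LPS in TAM and -0.31 to 0.07 in TAM against PEC with LPS. Sugars and lactate ran from -0.77 to 0.14 for LPS in TAM, -0.44 to 0.05 for LPS in PEC and -0.14 to 0.02 in TAM against PEC with LPS. Mitochondrial carriers ran from 0.12 to 0.39 in untreated TAM against PEC, -0.16 to -0.12 for LPS in TAM and 0.24 to 0.26 for LPS in PEC. Nucleoside carriers ran from -0.27 to 0.29 for LPS in TAM. All members ran from -0.07 to 0.01 for LPS in PEC and -0.03 to 0.14 in TAM against PEC with LPS.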
